A study of Mus musculus with 6 samples.

Results

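Opposite-strand transcripts are annotated genes named after another gene, with the suffix os, because they are transcribed from the other DNA strand at or near it. The accessibility of their start windows was set beside that of the gene each is named after, called its partner here. A member was any window whose symbol ended in os, os1, os2 or os3 after another symbol of the same table, with Slc13a2os left out. This rule gave 169 opposite-strand windows of 27095 windows in all, with 163 different partners, since 6 partners had several members. All 169 lay on the strand opposite to their partner, so the label held for each. RefSeq annotated 137 of them as long non-coding RNAs, 13 as protein-coding, 4 as antisense RNAs and 2 as transcribed pseudogenes, and 13 were not matched in the annotation.

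Natural antisense transcripts pair in head-to-head, nested or tail-to-tail arrangements with the gene on the other strand. Many start from the same open promoter region as their partner, and a few are known to act on it, by recruiting or repelling chromatin regulators, by covering a splice site or by producing microRNAs. Others have no known function. In medullary thymic epithelial cells (mTECs), which present self-antigens to developing T cells, transcription of tissue-restricted genes is unusually broad, so many such loci are measured outside the tissue they are known from.

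The data were 6 ATAC-seq libraries of mTECs with high surface MHC class II from C57BL/6 mice, 3 from Kat7-knockout mice and 3 from wildtype mice, each a biological replicate. ATAC-seq uses the Tn5 transposase to cut and tag open DNA, and KAT7 acetylates histones as the catalytic subunit of MYST-type complexes. The age of the mice, the driver of the deletion and the deleted part of Kat7 are not stated in the labels used here. Each gene had 1 window with a deposited read count, at full length 5001 bases, with 3000 bases upstream and 2000 bases downstream of the gene start. Levels are given as CPM after TMM scaling of the libraries, and changes are log2 fold changes of knockout over wildtype. The standard error (SE) of a window's change was derived from its test statistic. A window was called lower or higher where the adjusted p of edgeR's quasi-likelihood test over all 24817 tested windows was under 0.05.

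Library totals lay between 15482439 and 19832326 counts, so that 3 counts, the limit that a count of 0 allows, amounted to 0.154 to 0.192 CPM. The Kat7 window held 21.2 ± 14.9 CPM in knockout and 267 ± 26.5 CPM in wildtype libraries (SD, n = 3 each; log2 fold change -3.66, adjusted p = 0.0143). The summed windows of 11 genes listed as mature mTEC markers held 1977 to 2398 CPM in knockout and 2093 to 2187 CPM in wildtype libraries. These were Aire, Cd80, Cd86, H2-Aa, H2-Ab1, Cd74, Epcam, Fezf2, Krt5, Krt14 and Krt8. The 4 markers of cortical thymic epithelium held 150.0 to 178 CPM in knockout and 174 to 192 CPM in wildtype libraries, with 1 lower and 1 higher. Marker windows of cells outside the epithelium held less: 7 thymocyte markers summed to 34.7 to 37.5 CPM in knockout and 27.9 to 31.8 CPM in wildtype libraries, 3 endothelial markers to 13.4 to 16.8 CPM in knockout and 28.9 to 32.7 CPM in wildtype libraries, and 3 mesenchymal markers to 53.6 to 54.8 CPM in knockout and 60.7 to 66.1 CPM in wildtype libraries. The 5 myeloid and dendritic markers summed to 17.6 to 21.1 CPM in knockout and 24.5 to 26.7 CPM in wildtype libraries, and 3 B cell markers to 14.7 to 15.4 CPM in knockout and 19.0 to 21.7 CPM in wildtype libraries. Called markers were 2 higher for thymocytes, and lower ones were 2 endothelial, 2 myeloid and dendritic, 1 mesenchymal and 1 B cell. Of the mature mTEC list 1 was higher (20.2% of all tested windows were lower and 6.36% higher). The sums of these 5 lists outside the epithelium did not overlap between groups. None of their markers had a count of 0 in any library, and the part of these lists in the results below was not tested. In such bulk libraries, a smaller share of cells with an open window and less opening in each cell cannot be told apart.

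Promoter sequences from RefSeq (GRCm38.p6, 250 bases before to 50 bases after the gene start) are shown for some of the windows named below. Ptprtos and Lrp8os2 had the largest decreases among the members called, Evx1os and Evx1 were both lower, and Tspan2os was lower where Tspan2 was higher. Each is printed 5′ to 3′ on its own strand, with CG dinucleotides, the sites of DNA methylation that are dense in CpG islands, in capitals. Ptprtos (chr2:162390563-162390862, plus strand) holds 0 of them and Lrp8os2 (chr4:107822973-107823272, minus strand) 5. Evx1os (chr6:52314783-52315082, minus strand) holds 6, and Evx1 (chr6:52313248-52313547, plus strand) 12. Tspan2os (chr3:102735368-102735667, minus strand) holds 15, and Tspan2 (chr3:102734520-102734819, plus strand) 17.
Ptprtos: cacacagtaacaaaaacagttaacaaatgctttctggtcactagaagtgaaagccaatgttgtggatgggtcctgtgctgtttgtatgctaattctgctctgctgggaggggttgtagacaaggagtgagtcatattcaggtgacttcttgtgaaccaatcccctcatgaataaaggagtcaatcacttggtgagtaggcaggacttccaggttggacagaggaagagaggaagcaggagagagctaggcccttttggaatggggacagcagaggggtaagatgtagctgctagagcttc
Lrp8os2: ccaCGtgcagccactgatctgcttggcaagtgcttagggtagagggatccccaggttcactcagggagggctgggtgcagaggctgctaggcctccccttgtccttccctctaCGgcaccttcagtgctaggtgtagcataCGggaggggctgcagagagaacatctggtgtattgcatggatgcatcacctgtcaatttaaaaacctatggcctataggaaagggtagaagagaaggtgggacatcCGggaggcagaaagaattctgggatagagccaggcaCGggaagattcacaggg
Evx1os: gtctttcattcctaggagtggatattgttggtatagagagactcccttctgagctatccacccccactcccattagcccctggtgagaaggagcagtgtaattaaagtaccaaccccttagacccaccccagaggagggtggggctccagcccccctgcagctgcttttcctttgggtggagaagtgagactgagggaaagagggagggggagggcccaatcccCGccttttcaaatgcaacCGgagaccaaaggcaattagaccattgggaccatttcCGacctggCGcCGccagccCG
Evx1: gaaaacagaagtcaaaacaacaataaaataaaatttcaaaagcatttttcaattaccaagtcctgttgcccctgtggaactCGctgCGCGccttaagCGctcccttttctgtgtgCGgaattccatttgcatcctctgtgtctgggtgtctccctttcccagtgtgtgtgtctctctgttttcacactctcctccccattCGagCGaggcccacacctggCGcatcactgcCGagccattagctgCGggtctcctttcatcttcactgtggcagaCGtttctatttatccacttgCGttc
Tspan2os: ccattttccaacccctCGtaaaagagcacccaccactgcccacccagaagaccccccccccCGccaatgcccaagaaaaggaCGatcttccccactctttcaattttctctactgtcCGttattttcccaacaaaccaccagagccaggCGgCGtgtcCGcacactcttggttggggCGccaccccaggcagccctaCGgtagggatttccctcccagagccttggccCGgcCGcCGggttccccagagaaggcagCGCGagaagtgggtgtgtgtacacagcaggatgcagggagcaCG
Tspan2: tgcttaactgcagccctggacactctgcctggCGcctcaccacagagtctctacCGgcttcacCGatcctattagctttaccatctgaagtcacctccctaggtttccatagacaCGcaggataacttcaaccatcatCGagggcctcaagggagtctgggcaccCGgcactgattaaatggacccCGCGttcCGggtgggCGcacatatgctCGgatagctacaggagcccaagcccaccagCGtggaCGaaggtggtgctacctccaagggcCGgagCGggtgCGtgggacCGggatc

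Over all members, opposite-strand promoters were poorer in CG than those of their partners. Of the 169 members, 127 matched a promoter entry and 107 of these lay at the start that the window was drawn around; of the partners, 135 matched and 98 lay there. The median number of CG dinucleotides per 300 bases was 8 in opposite-strand promoters, 20 in partner promoters and 12 in the 13843 promoters of all windows matched in the same way. The opposite-strand promoters called lower had a median of 7 (n = 22) and those called higher a median of 6 (n = 4). The letters GGGCGG, searched on both strands without regard to overlaps with other motifs, occurred in 32.7% of opposite-strand promoters, 55.1% of partner promoters and 44.6% of all promoters of that length.

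Opposite-strand windows also had a lower median level than their partners. Per kilobase of window shared with no other window, the median level of the opposite-strand windows was 1.09 CPM in knockout and 1.49 CPM in wildtype libraries. The median level of the partners on the same scale was 1.84 CPM in knockout and 2.55 CPM in wildtype libraries. In knockout libraries, the opposite-strand window was the denser one in 63 of the 161 pairs with unshared bases in both windows, and in wildtype libraries in 64. The scale uses unshared bases because reads that fall in shared stretches seem not to have been counted: the 476 windows with no unshared base had a median count of 0, against 224 for windows sharing no base. Members that shared most of their window had a median of 967 unshared bases. For them the scale leaves out the shared stretch, which can hold the gene start. No test of the difference in level was made.

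In Kat7-knockout mTECs, lower calls outnumbered higher ones among the opposite-strand windows. Of 152 tested, 36 were lower (23.7%, against 20.2% of all tested windows), 9 were higher (5.92%, against 6.36%) and 107 did not pass. Their median log2 fold change was -0.18, against 0.04 over all tested windows, and such medians differed with accessibility (given by quartile below). Of the 140 partners tested, 33 were lower (23.6%), 5 were higher (3.57%) and 102 did not pass, with a median of -0.15. These shares lay near those of all windows, so the counts of calls are not particular to opposite-strand windows. The higher calls were the less settled ones: without wildtype library 1 there were 4 for the opposite-strand windows and 2 for the partners, and without wildtype library 3 there were 5 for the opposite-strand windows.

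Knockout library 1 stood lower than the others over the members. Its median log2 ratio to the wildtype mean over the opposite-strand windows was -0.37, against -0.10 in knockout library 2 and -0.11 in knockout library 3. Over all windows the same ratios were -0.07, -0.01 and -0.01. Without knockout library 1, 40 opposite-strand windows were lower and 13 higher. The 3 knockout libraries lay below the 3 wildtype libraries in 48 of the tested opposite-strand windows (24.6% of all windows did so) and above them in 16 (13.5% of all windows did so). Of the called windows, 35 of the 36 lower and all 9 higher ones were separated in this way, and Bcas3os1, named here after its values were seen, was the exception.

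The called decreases were larger than the called increases, among the members as over all tested windows. A decrease of at least 2-fold was called in 10 of the 152 opposite-strand windows tested (7.28% of all tested windows had one). No increase of that size was called (0.886% of all had one). These counts lay near the shares of all windows and are not particular to opposite-strand windows. Ptprtos, which lies on the strand opposite to the receptor-type protein tyrosine phosphatase gene Ptprt, at chr2:162387813-162392813 of build mm10, fell furthest. Its window held 2.06, 3.17 and 3.73 CPM in knockout libraries 1 to 3, and 10.7, 9.97 and 12.1 CPM in wildtype libraries 1 to 3. All knockout values were below all wildtype values (log2 fold change -1.88, SE 0.186, adjusted p = 3.76e-22). The Ptprt window, 270.3 kb away, was sparse, with 0.573, 0.956 and 0.978 CPM in knockout and 1.18, 1.47 and 1.54 CPM in wildtype libraries, and did not pass (log2 fold change -0.73, adjusted p = 0.285).

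Lrp8os2 starts inside Lrp8, which encodes a receptor for reelin and apolipoprotein E, 20.8 kb from the Lrp8 start. The Lrp8os2 window (chr4:107821022-107826022) held 5.21, 7.41 and 9.29 CPM in knockout, against 26.5, 21.2 and 25.0 CPM in wildtype libraries (log2 fold change -1.74, SE 0.135, adjusted p = 8.22e-36). The Lrp8 window fell less, to 126, 107 and 102 CPM in knockout libraries, against 185, 141 and 157 CPM in wildtype libraries (log2 fold change -0.53, SE 0.124, adjusted p = 0.000138). Neither window's groups overlapped. To compare the 2 changes themselves, the log2 CPM difference between the windows of a pair was fitted with limma over 23532 pairs. These were the pairs of neighbouring (consecutive) tested windows and the opposite-strand pairs, which need not be neighbours, and are called all neighbouring pairs below. The 2 changes at Lrp8 were unequal in that fit (opposite-strand minus partner -1.22, SE 0.2, adjusted p = 4.07e-05).

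At Csmd2, a gene for a large transmembrane protein with CUB and Sushi domains, both windows fell, 178.5 kb apart. Csmd2os held 2.58, 4.42 and 5.69 CPM in knockout and 13.7, 10.9 and 14.3 CPM in wildtype libraries (log2 fold change -1.62, adjusted p = 6.29e-21). Csmd2 held 19.3, 17.4 and 18.8 CPM in knockout and 50.4, 45.2 and 51.0 CPM in wildtype libraries (log2 fold change -1.40, adjusted p = 1.6e-31). The difference between the changes was -0.26 (SE 0.235) and did not pass (adjusted p = 0.456).

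Msx1 encodes a homeobox factor of craniofacial and tooth development, and its antisense transcript Msx1os starts 4.0 kb inside it. Msx1os held 2.98, 3.52 and 3.91 CPM in knockout and 9.12, 7.67 and 10.2 CPM in wildtype libraries (log2 fold change -1.37, SE 0.191, adjusted p = 1.15e-11). Msx1 held 34.9, 31.4 and 31.7 CPM in knockout and 45.1, 46.7 and 49.0 CPM in wildtype libraries (log2 fold change -0.52, adjusted p = 2.9e-05). Both were separated between the groups, and the antisense window fell more (difference -0.82, SE 0.225, adjusted p = 0.00566).

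Evx1os and Evx1, an even-skipped-type homeobox gene at the end of the HoxA cluster, both fell. Their windows shared 2667 bases (53.3% of the Evx1os window), and their promoters, printed above, lie in that shared stretch. The counts of each window seem to come from its 2334 unshared bases. Evx1os held 3.09, 2.81 and 3.06 CPM in knockout and 7.99, 5.56 and 7.15 CPM in wildtype libraries (log2 fold change -1.21, SE 0.214, adjusted p = 1.67e-07). Evx1 held 0.974, 1.91 and 1.35 CPM in knockout and 2.61, 4.03 and 3.07 CPM in wildtype libraries (log2 fold change -1.19, SE 0.344, adjusted p = 0.00296). The groups did not overlap for either window, and the difference between the changes was under its SE of 0.355 (adjusted p = 0.996). The Evx1 call was lost without wildtype library 2, and its adjusted p ranged between 0.000282 and 0.0959 over the alternatives.

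Dlx4os lies opposite Dlx4, a distal-less homeobox gene, on chromosome 11, where its window is 161 kb from that of the deleted gene Kat7. It held 2.52, 3.23 and 3.73 CPM in knockout and 8.35, 5.88 and 8.21 CPM in wildtype libraries (log2 fold change -1.25, SE 0.206, adjusted p = 1.69e-08). The Dlx4 window, which shared 65.0% of the Dlx4os window, held 0.86, 1.31 and 1.77 CPM in knockout and 2.36, 1.6 and 2.13 CPM in wildtype libraries and did not pass (log2 fold change -0.63, adjusted p = 0.272). Its groups overlapped, unlike those of Dlx4os. Because of this place near the targeted gene, an effect of the deleted locus and one of the missing protein cannot be told apart for Dlx4os.

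Fzd10os and Igf2os also fell, each at low counts. Fzd10 encodes a Frizzled receptor for Wnt ligands, and 88.4% of the Fzd10os window is shared with it. Fzd10os held 0.516, 0.358 and 0.55 CPM in knockout and 1.23, 1.66 and 1.0 CPM in wildtype libraries (log2 fold change -1.43, SE 0.533, adjusted p = 0.0296). This call was lost with DESeq2 and without any single library other than knockout library 1 (adjusted p between 0.000497 and 0.171 over the alternatives). Fzd10 held 4.87, 4.66 and 3.24 CPM in knockout and 1.79, 4.28 and 2.78 CPM in wildtype libraries, overlapping groups that did not pass (log2 fold change 0.55, adjusted p = 0.102). The 2 changes were unequal (difference -1.82, SE 0.432, adjusted p = 0.00161).

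Igf2 encodes an imprinted fetal growth factor, and Igf2os is transcribed across it from the other strand. Igf2os held 0.974, 1.08 and 1.35 CPM in knockout and 2.61, 3.0 and 3.01 CPM in wildtype libraries (log2 fold change -1.34, SE 0.379, adjusted p = 0.00229). Igf2 held 0.688, 1.37 and 1.53 CPM in knockout and 1.38, 1.34 and 1.12 CPM in wildtype libraries and did not pass (log2 fold change -0.10, adjusted p = 0.898). The changes were unequal (difference -1.12, SE 0.377, adjusted p = 0.0237). Without knockout library 1 the Igf2 value was 0.17.

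**Figure D1:**
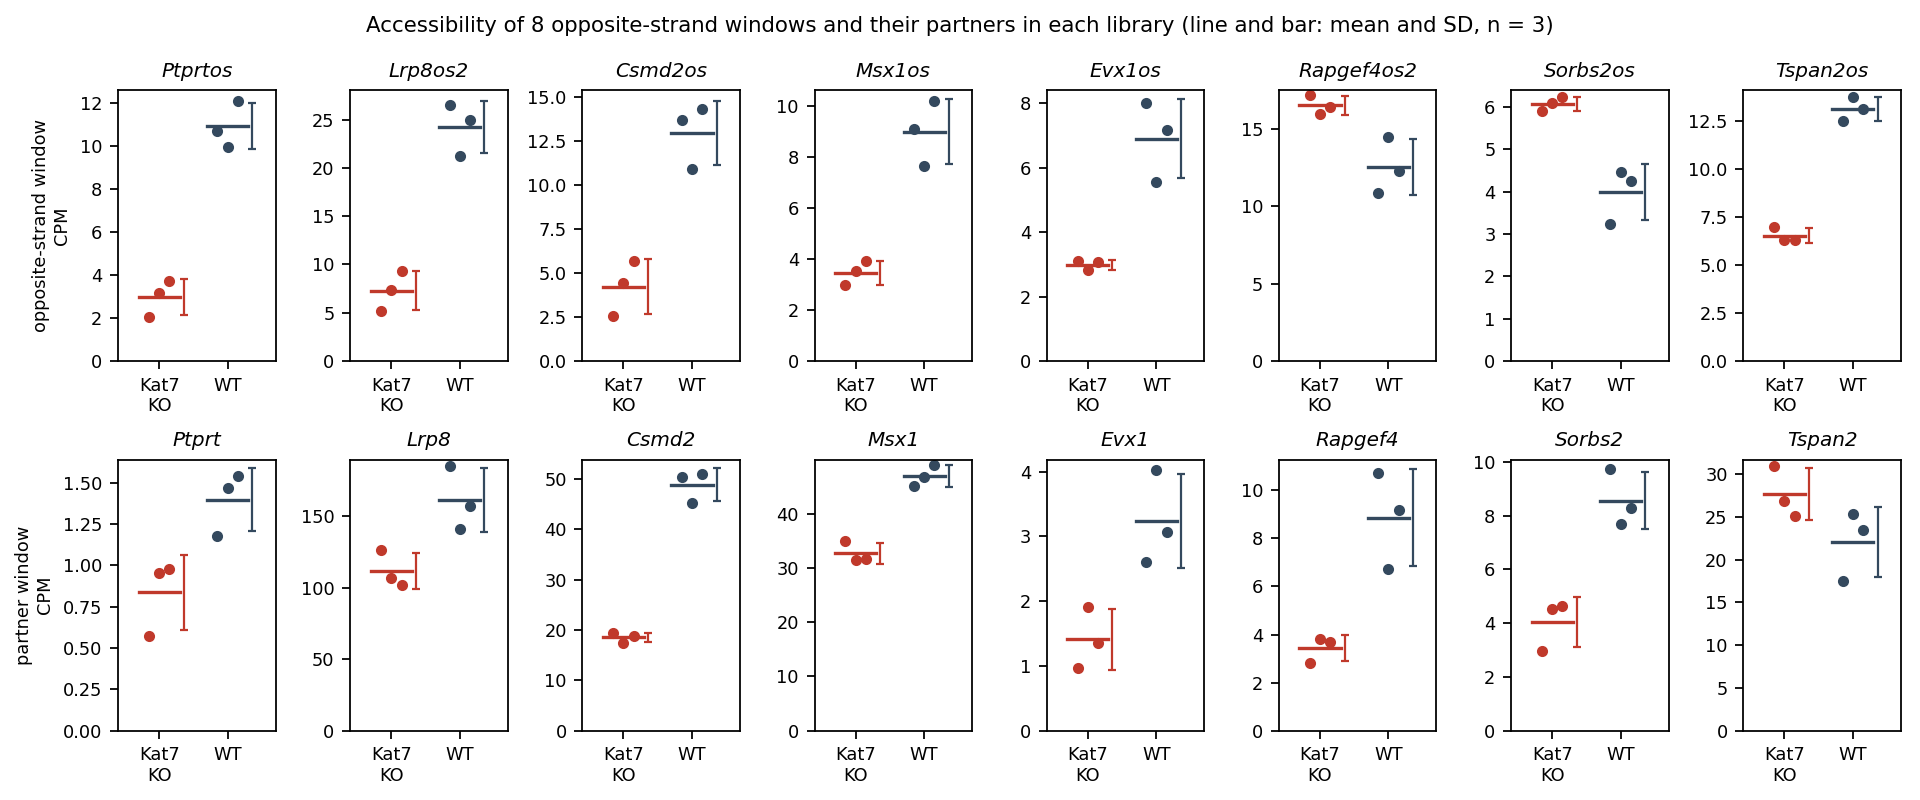
Accessibility in CPM (y axis, starting at 0) of 8 opposite-strand windows (upper row) and their partners (lower row) in each Kat7-knockout (KO) and wildtype (WT) library, with horizontal lines at the means and vertical bars of 1 SD (n = 3 each). Ptprtos held 2.06 to 3.73 CPM in knockout and 9.97 to 12.1 CPM in wildtype libraries, while Rapgef4os2, Sorbs2os and Tspan2os moved against the direction of their partners.

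All 9 increases called in opposite-strand windows were under 2-fold and lay inside the partner gene. Macrod2os2 had the largest, 840.0 kb from the start of Macrod2, which encodes an ADP-ribose hydrolase. It held 4.13, 4.06 and 5.56 CPM in knockout and 2.1, 2.81 and 2.36 CPM in wildtype libraries (log2 fold change 0.92, SE 0.262, adjusted p = 0.0025). Macrod2 itself was open at similar levels in both groups, with 193, 151 and 153 CPM in knockout and 181, 149 and 161 CPM in wildtype libraries (log2 fold change 0.02, adjusted p = 0.938). The changes were unequal (difference 0.87, SE 0.287, adjusted p = 0.0208).

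Pramel13os had the firmest increase. It belongs to a locus of the PRAME-like gene family on chromosome 4 and held 68.9, 64.0 and 67.7 CPM in knockout, against 39.8, 49.3 and 42.5 CPM in wildtype libraries (log2 fold change 0.61, SE 0.113, adjusted p = 7.4e-07). The groups did not overlap. Pramel13 held 11.4, 12.1 and 13.6 CPM in knockout and 11.4, 13.5 and 12.5 CPM in wildtype libraries, overlapping groups (log2 fold change -0.02, adjusted p = 0.95). PRAME-like genes are a repeated family, so reads of near-identical copies may be split between windows here.

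Slfn5os, inside a gene of the Schlafen family of interferon-induced proteins, held 11.2, 11.5 and 10.5 CPM in knockout and 7.12, 8.5 and 7.62 CPM in wildtype libraries (log2 fold change 0.52, SE 0.153, adjusted p = 0.00386). Slfn5 did not pass (log2 fold change -0.02, adjusted p = 0.925), and the changes were unequal (difference 0.53, adjusted p = 0.0215). The Slfn5os call was lost without wildtype library 3, with an adjusted p between 1.99e-05 and 0.0613 over the alternatives. Tmem51os1 held 23.0, 19.2 and 21.9 CPM in knockout and 14.6, 16.2 and 16.5 CPM in wildtype libraries (log2 fold change 0.44, adjusted p = 0.00198). Its partner Tmem51, with 79.9% of the Tmem51os1 window in common, had 1.23 CPM per kilobase of unshared window in knockout libraries, where Tmem51os1 had 21.3, and its window held 0.86, 1.19 and 1.65 CPM in knockout and 1.9, 2.24 and 1.65 CPM in wildtype libraries (log2 fold change -0.64, adjusted p = 0.282). These 2 changes were unequal as well (difference 1.06, SE 0.363, adjusted p = 0.0252).

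Mccc1os and Egfros were also called higher. Mccc1 encodes a subunit of a carboxylase of leucine breakdown, and Mccc1os held 11.1, 8.12 and 7.89 CPM in knockout and 4.77, 7.73 and 7.03 CPM in wildtype libraries (log2 fold change 0.48, adjusted p = 0.0167). Mccc1 had a like value that did not pass (0.44, adjusted p = 0.321). Egfros, 78.5 kb inside the epidermal growth factor receptor gene, held 95.1, 90.9 and 89.6 CPM in knockout and 59.1, 80.0 and 75.8 CPM in wildtype libraries (log2 fold change 0.36, adjusted p = 0.0106). Egfr did not pass (-0.06, adjusted p = 0.757), and the difference of 0.43 (SE 0.098) did (adjusted p = 0.00148). The Mccc1os call was lost in 7 of 14 alternatives, with an adjusted p between 0.00117 and 0.28, and the Egfros call in 3, with an adjusted p between 7.97e-05 and 0.306; both were lost without wildtype library 1.

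Both windows of a pair could be tested in 134 pairs. Both were lower in 5 (Lrp8os2, Csmd2os, Msx1os, Evx1os and Six3os1 with their partners; 6.29% of all 23532 neighbouring pairs and 5.88% of the other neighbouring pairs that shared bases were both lower). Both were higher in 0 pairs by edgeR (0.973% of all neighbouring pairs and 0.887% of the others that shared bases were); at an unadjusted p under 0.05 it was 1 pair, by DESeq2 0 and by limma-voom 1. Without wildtype library 2, 3 pairs were both lower. The opposite-strand window alone passed in 35 pairs, 28 lower and 7 higher, and the partner alone in 29, 27 lower and 2 higher. Neither passed in 61. The log2 fold changes of the windows, rounded to 2 decimals, had the same sign in 69 pairs (51.5%). A change that rounded to 0 was thereby counted as unlike that of the other window. Unrounded changes had the same sign in 58.9% of the 23398 other neighbouring pairs and 61.0% of the 1803 of these that shared bases, so the measures are not quite alike. Across pairs, which share the 6 libraries, Pearson's r between the 2 fold changes was 0.08 (n = 134), against 0.28 in the other neighbouring pairs. It was 0.07 in the 88 pairs without a shared base, 0.12 in the 35 pairs that shared most of the opposite-strand window and 0.37 in the 11 that shared a smaller part. The other neighbouring pairs were consecutive windows, whereas members without a shared base started a median of 38.1 kb and up to 840.0 kb from the partner start. Opposite-strand windows were also sparser (median 3.57 CPM, against 10.1 CPM for all tested windows). The part of distance and depth in these differences was not tested.

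**Figure D2:**
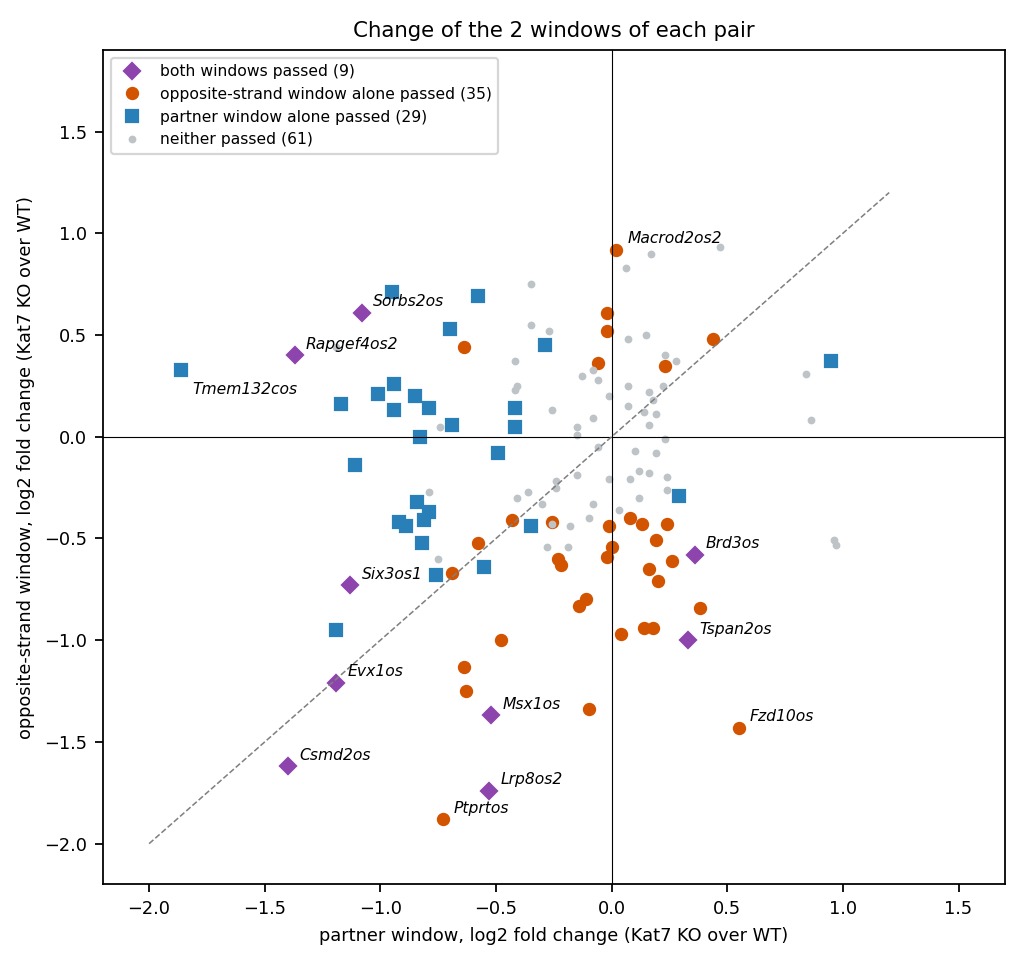
Log2 fold change (Kat7 KO over WT) of the opposite-strand window (y axis) against that of its partner (x axis) for the 134 pairs tested in both, with marker shape and colour for which windows passed and a dashed line of equal change. Only 9 pairs had both windows past the threshold, 5 of them in the lower left, and the windows that passed alone spread along the axes.

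In 4 pairs the windows passed in opposite directions (1.73% of all neighbouring pairs and 0.61% of the others that shared bases did so). Rapgef4os2 and Sorbs2os were higher while their partners were lower. Rapgef4 encodes a cAMP-activated exchange factor for the small GTPase Rap, and Rapgef4os2 starts 251.1 kb into it. Rapgef4os2 held 17.2, 16.0 and 16.4 CPM in knockout and 10.9, 14.5 and 12.3 CPM in wildtype libraries (log2 fold change 0.40, SE 0.131, adjusted p = 0.0107). Rapgef4 held 2.81, 3.82 and 3.67 CPM in knockout and 10.7, 6.71 and 9.16 CPM in wildtype libraries (log2 fold change -1.37, SE 0.192, adjusted p = 1.6e-11). The groups did not overlap for either window, and the changes were unequal (difference 1.72, SE 0.254, adjusted p = 5.27e-06).

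Sorbs2 encodes an actin-linked adaptor protein with SH3 domains, and Sorbs2os starts 311.5 kb into it, so this pair too was read at well separated places. Sorbs2os held 5.9, 6.09 and 6.24 CPM in knockout and 3.23, 4.47 and 4.25 CPM in wildtype libraries (log2 fold change 0.61, SE 0.209, adjusted p = 0.0148). Sorbs2 held 2.98, 4.54 and 4.65 CPM in knockout and 9.74, 7.67 and 8.27 CPM in wildtype libraries (log2 fold change -1.08, SE 0.187, adjusted p = 8.05e-08). Neither overlapped, and the difference was 1.68 (SE 0.253, adjusted p = 6.82e-06). The calls of Rapgef4os2 and Sorbs2os themselves were lost with library totals only and without wildtype library 1 or 3, that of Sorbs2os also without knockout library 2; their adjusted p ranged up to 0.11 and 0.143.

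Tspan2os and Brd3os were lower while their partners were higher. Tspan2 encodes a tetraspanin known from oligodendrocytes, and the 2 windows shared 3354 bases (67.1% of each), with the promoters printed above starting 0.6 kb apart. Both promoters lie in the shared stretch, and the counts of each window seem to come from its 1647 unshared bases. Tspan2os held 6.99, 6.27 and 6.3 CPM in knockout and 12.5, 13.7 and 13.1 CPM in wildtype libraries (log2 fold change -1.0, SE 0.153, adjusted p = 8.1e-10). Tspan2 held 31.0, 26.8 and 25.1 CPM in knockout and 17.5, 25.3 and 23.5 CPM in wildtype libraries (log2 fold change 0.33, SE 0.116, adjusted p = 0.0205). Tspan2os was separated between the groups and Tspan2 was not. The Tspan2 call was lost with library totals only, with DESeq2, without knockout library 1 and without wildtype library 1 (adjusted p between 0.000806 and 0.386 over the alternatives), whereas the difference of -1.33 (SE 0.179) was called with an adjusted p of 1.46e-06.

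Brd3 encodes a bromodomain protein that reads acetylated histones, and Brd3os, annotated as protein-coding, starts 33.3 kb from its start, beyond its end. Brd3os held 28.3, 29.4 and 29.1 CPM in knockout and 47.0, 38.6 and 44.3 CPM in wildtype libraries (log2 fold change -0.58, SE 0.113, adjusted p = 2.27e-06). Brd3 held 131, 106 and 103 CPM in knockout and 91.7, 88.6 and 85.4 CPM in wildtype libraries (log2 fold change 0.36, SE 0.12, adjusted p = 0.0136). Neither overlapped (difference -0.92, SE 0.111, adjusted p = 2.33e-07). The Brd3 call was lost without wildtype library 1 (adjusted p between 7.59e-06 and 0.0547 over the alternatives).

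The windows of a pair changed unequally in 47 of 134 pairs (35.1%, against 31.2% of all neighbouring pairs and 21.1% of the other neighbouring pairs that shared bases). The opposite-strand window was the more negative one in 25 and the more positive one in 22. Among the 25, 20 had an opposite-strand window called lower and 3 a partner called higher. Among the 22, 7 had an opposite-strand window called higher and 14 a partner called lower. Without wildtype library 3 the count of unequal pairs was 31.

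Tmem132cos and Tmem132c, a gene for a transmembrane protein, had the largest difference. Tmem132cos was sparse, at 1.2, 3.05 and 2.87 CPM in knockout and 2.15, 1.28 and 2.19 CPM in wildtype libraries, overlapping groups (log2 fold change 0.33, adjusted p = 0.535). Tmem132c, 39.8 kb away, held 5.62, 7.64 and 9.23 CPM in knockout and 30.8, 23.3 and 27 CPM in wildtype libraries (log2 fold change -1.86, SE 0.132, adjusted p = 3.37e-42). The difference was 2.11 (SE 0.334, adjusted p = 1.38e-05).

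Dnm3os, a host transcript of microRNAs inside the dynamin gene Dnm3, held 2.01, 1.97 and 2.51 CPM in knockout and 1.08, 1.34 and 1.54 CPM in wildtype libraries and did not pass (log2 fold change 0.71, adjusted p = 0.193). Dnm3 held 21.1, 21.1 and 21.8 CPM in knockout and 46.5, 35.3 and 41.5 CPM in wildtype libraries (log2 fold change -0.95, SE 0.114, adjusted p = 3.47e-15). The groups of neither window overlapped, and the difference was 1.60 (SE 0.346, adjusted p = 0.000626).

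In the pairs of Trpc5os, Slc6a19os and Phtf1os the difference passed although neither window did. For Trpc5os and Trpc5, a cation channel gene, the values were 0.44 and -1.19 (difference 1.51, SE 0.434, adjusted p = 0.0081). For Slc6a19os and Slc6a19, a gene for a neutral amino acid transporter of gut and kidney, they were -0.51 and 0.96 (difference -1.48, SE 0.4, adjusted p = 0.00486). For Phtf1os and Phtf1 they were -0.53 and 0.97 (difference -1.39, SE 0.49, adjusted p = 0.0304). All 6 of these windows averaged between 0.46 and 2.3 CPM in each group, and the Trpc5os value was -0.03 without knockout library 2.

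**Figure D3:**
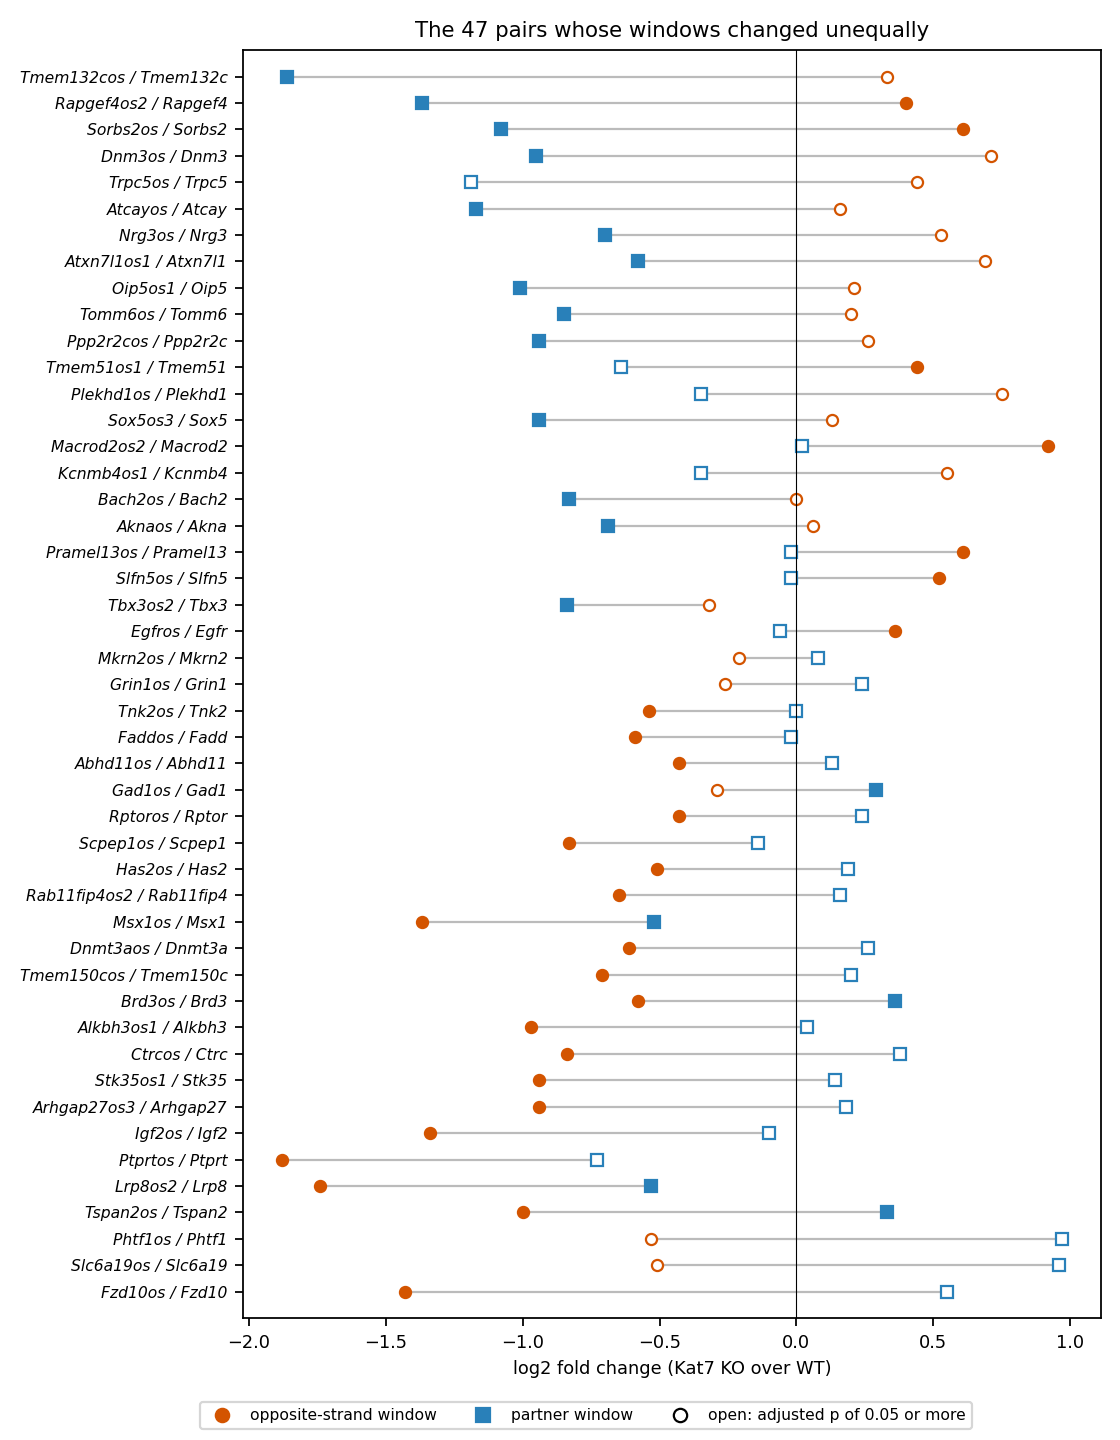
Log2 fold changes (x axis, Kat7 KO over WT) of the opposite-strand window (circles) and the partner window (squares) in each of the 47 pairs that changed unequally, ordered by the fitted difference, with open markers for an adjusted p of 0.05 or more. Tmem132cos and Tmem132c stand at 0.33 and -1.86, and Fzd10os and Fzd10 at -1.43 and 0.55.

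Calls were also counted by the arrangement of the pair. Of the members, 96 shared no base with the partner window, at a median distance of 38.1 kb between starts. Another 60 shared most of their window, at a median of 0.4 kb, and 13 a smaller part, at 2.1 kb. Opposite-strand windows lower in knockout numbered 22 of 95 tested (23.2%) without a shared base, 10 of 46 (21.7%) with most of the window shared and 4 of 11 (36.4%) with a smaller part shared. Of all tested windows 20.2% were lower. Unequal pairs numbered 36 of 88 (40.9%), 10 of 35 (28.6%) and 1 of 11 (9.09%) in the same order. Of all neighbouring pairs 31.2% were unequal, and of the other neighbouring pairs that shared bases 21.1%. Windows that share most of their bases have few bases left to count, a median of 967 against 5001, and a median of 21.0 counts against 93.4 counts, and the part of this depth in the shares was not tested.

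By position, members that start inside the partner gene held most of the calls, and were also 89 of the 152 members tested. Of these 89, 27 were lower (30.3%, against 20.2% of all tested windows) and 9 were higher (10.1%, against 6.36%). Members were put upstream by the start that the partner window was drawn around. Neither distance (463.3 kb for Sox5os3) nor the partner's annotated extent was used for this. Of the 32 tested upstream of the partner start, 4 were lower (12.5%), and of the 31 tested beyond the partner end 5 were lower (16.1%). No window of either kind was higher by edgeR; at an unadjusted p under 0.05 there were 2 upstream and 3 beyond the end, by DESeq2 1 and 0, and by limma-voom 2 and 7. Members upstream had a median of 17.7 counts and 844 unshared bases, and members inside 85.3 counts and 5001 unshared bases, so depth moved with position and its part was not tested.

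The share of windows called differed with accessibility. Among the opposite-strand windows, 45 lay in the lowest quartile of all tested windows by mean level, 60 in the next, 35 in the third and 12 in the highest. In these quartiles 2 (4.44%), 15 (25.0%), 17 (48.6%) and 2 (16.7%) were lower, against 1.35%, 32.5%, 43.2% and 3.72% of all tested windows there. The counts of higher calls were 0, 4 (6.67%), 4 (11.4%) and 1 (8.33%), against 2.26%, 4.58%, 9.28% and 9.32% of all tested windows there. Median log2 fold changes were 0.12, -0.29, -0.32 and 0.1 for the opposite-strand windows, against 0.37, -0.27, -0.19 and 0.11 for all tested windows. The median mean level was 3.57 CPM for opposite-strand windows, 6.22 CPM for partners and 10.1 CPM for all tested windows.

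**Figure D4:**
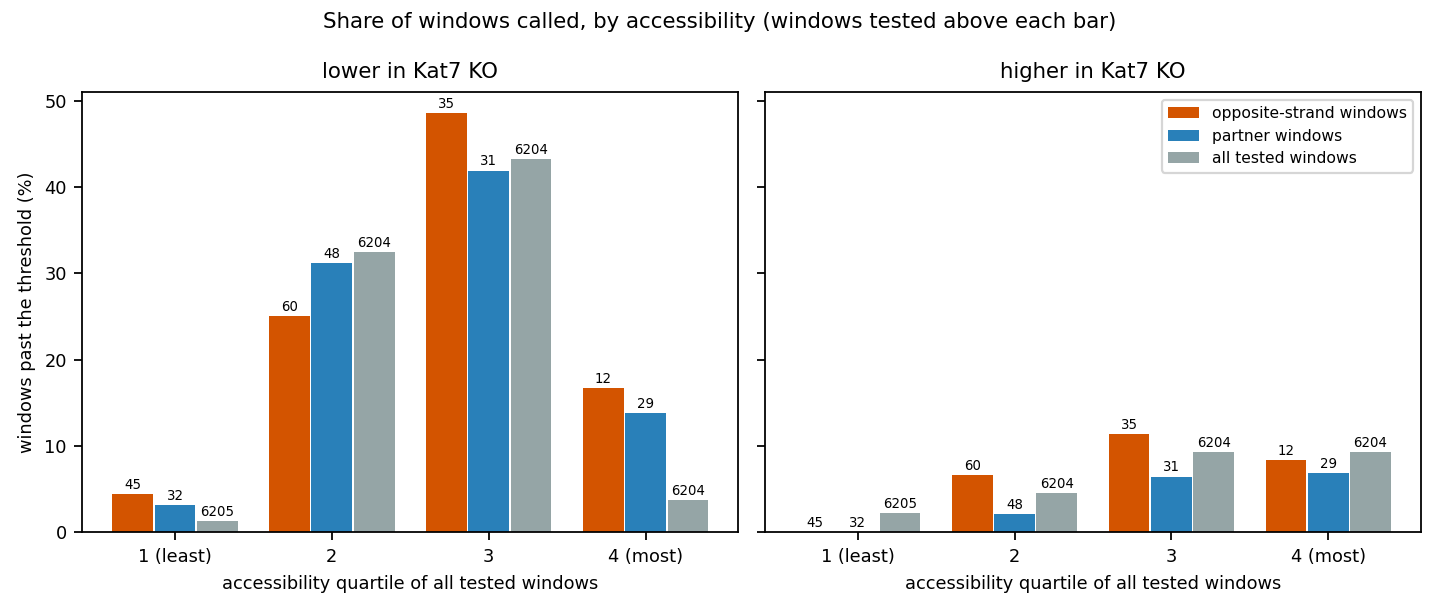
Share of windows called (y axis, percent) in each accessibility quartile (x axis) for opposite-strand windows, partners and all tested windows, lower in Kat7 KO on the left and higher on the right, with the number tested above each bar. In the third quartile 48.6% of the opposite-strand windows were lower, against 43.2% of all windows.

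Partners that are developmental transcription factors, taken by the first letters of their symbol, had 24 members, of which 20 were tested. Of these 9 were lower (45.0%, against 20.5% of the 132 members with other partners), with a median log2 fold change of -0.46. Of the 21 such partners tested 8 were lower (38.1%, against 21.0% of the 119 other partners tested), with a median of -0.69, against -0.06 for the other partners. Of all tested windows 20.2% were lower. By accessibility quartile, from lowest to highest, these were 1.35%, 32.5%, 43.2% and 3.72%. The part of accessibility in the shares of the transcription factor lists was not tested. No window of either list was higher by edgeR (6.36% of all tested windows were), at an unadjusted p under 0.05, by DESeq2 or by limma-voom. Both windows were lower in 3 of the 19 pairs fitted (6.29% of all neighbouring pairs), and 3 pairs were unequal (31.2% of all neighbouring pairs). The windows of 17 of the 24 pairs share bases and so lie at the same place. Reads in shared stretches seem not to have been counted, but members and partners were not taken as independent. No test of the difference between the lists was made.

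Of these, Msx1os, Dlx4os and Evx1os are given above. Six3os1 lies upstream of Six3, which patterns the forebrain and eye, and held 1.95, 2.27 and 2.32 CPM in knockout and 3.64, 3.52 and 3.72 CPM in wildtype libraries (log2 fold change -0.73, SE 0.292, adjusted p = 0.0465). Six3 held 2.18, 2.27 and 2.26 CPM in knockout and 5.53, 4.92 and 4.25 CPM in wildtype libraries (log2 fold change -1.13, SE 0.26, adjusted p = 9.63e-05). Neither overlapped, but the Six3os1 call was lost in 9 of 13 alternatives (adjusted p between 0.00384 and 0.178), and without knockout library 1 it was kept. Pax6, the eye and islet regulator, was lower (log2 fold change -0.76, adjusted p = 3.66e-05), and Pax6os1 had a like value that did not pass (-0.68, adjusted p = 0.126).

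Hoxd3os1, in the HoxD cluster, held 15.4, 12.7 and 12.5 CPM in knockout and 23.1, 18.5 and 19.9 CPM in wildtype libraries (log2 fold change -0.60, SE 0.126, adjusted p = 1.47e-05). Hoxd3 did not pass (-0.23, adjusted p = 0.375). Zeb2os, which in human cells affects splicing of the partner transcript during epithelial to mesenchymal transition, held 23.2, 19.4 and 18.1 CPM in knockout and 27.3, 26.8 and 26.5 CPM in wildtype libraries (log2 fold change -0.41, adjusted p = 0.00267). Zeb2 had a like value that did not pass (-0.43, adjusted p = 0.117). The calls of Hoxd3os1 and Zeb2os were lost under loess normalisation, which removes trends with level, and that of Zeb2os also without knockout library 3 (adjusted p up to 0.181 and 0.427 over the alternatives).

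Nkx2-2os and Zfhx2os passed narrowly. Nkx2-2 is a regulator of pancreatic islet and spinal cord cells, and Nkx2-2os had a log2 fold change of -0.52 (adjusted p = 0.0314), with Nkx2-2 at -0.58 (adjusted p = 0.11). Zfhx2os had -0.40 (adjusted p = 0.0474), with Zfhx2 at 0.08 (adjusted p = 0.746). The first call was lost in 8 alternatives (adjusted p between 0.000462 and 0.575) and the other in 11 (adjusted p between 0.041 and 0.827). Raxos1, named after its values were seen, completed the 9 with -0.67 (adjusted p = 4.9e-08), opposite the eye-field gene Rax.

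Other antisense transcripts of regulators did not pass. Dlx6os1, a forebrain transcript known to act on neighbouring Dlx genes, held 5.1, 4.72 and 5.87 CPM in knockout and 4.71, 5.56 and 4.02 CPM in wildtype libraries (log2 fold change 0.14, adjusted p = 0.679). Dlx6 itself was lower, at 37.7, 27.9 and 29.2 CPM in knockout, against 42.5, 42.9 and 41.3 CPM in wildtype libraries (log2 fold change -0.42, adjusted p = 0.00118). That call was lost without knockout library 2 (adjusted p up to 0.0535 over the alternatives), and the difference between the 2 changes was 0.57 (SE 0.237, adjusted p = 0.069). Otx2os1 (-0.30, adjusted p = 0.292), Emx2os (-0.60, adjusted p = 0.208) and Foxl2os (0.05, adjusted p = 0.946) did not pass, and neither did their partners.

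The 5 opposite-strand windows with the highest mean CPM per window, Atcayos, Hk1os, Zfp652os, Rab10os and Oip5os1, did not pass. Per kilobase of unshared window the order differed: Frmd8os, with 855 unshared bases, had 88.4 CPM in knockout and 88.1 CPM in wildtype libraries, above the 39.2 CPM in knockout and 35.0 CPM in wildtype libraries of Atcayos, and did not pass. Fam120aos, with 716 unshared bases, had 27.5 CPM in knockout and 42.6 CPM in wildtype libraries on that scale and was lower (log2 fold change -0.63, adjusted p = 6.36e-07); both are named after their values were seen. Atcayos held 228, 182 and 178 CPM in knockout and 181, 179 and 166 CPM in wildtype libraries (log2 fold change 0.16, adjusted p = 0.376), while Atcay, a gene expressed in neurons, was lower (log2 fold change -1.17, SE 0.257, adjusted p = 4.15e-05). Oip5os1, a conserved non-coding RNA also called Cyrano, averaged 115 ± 15.3 CPM in knockout and 99.2 ± 1.27 CPM in wildtype libraries (SD, n = 3 each; log2 fold change 0.21, adjusted p = 0.209). Its partner Oip5, which encodes a centromere-loading factor, averaged 1.21 ± 0.233 CPM in knockout and 2.44 ± 0.43 CPM in wildtype libraries (SD, n = 3 each; log2 fold change -1.01, adjusted p = 0.042). The Oip5 call was lost in 5 alternatives, among them leaving out knockout library 2 or any 1 wildtype library. Both of these pairs were unequal (differences 1.30 and 1.15, adjusted p = 0.000698 and 0.0105). Rab10os and Zfp652os had values of 0.11 and 0.30 (adjusted p = 0.564 and 0.0575), and Hk1os had -0.27 (adjusted p = 0.0984), with none of their partners called.

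Of the 169 members, 17 were too sparse to be tested, 14 of them with most of their window shared with the partner. Ctcflos, Prdm16os and Vax2os had a count of 0 in every library, and together with Hoxa11os they had no unshared base, so no value can be read for them. Wt1os, whose partner encodes a regulator of kidney and gonad development, held 0.344, 0.179 and 0.306 CPM in knockout and 0.82, 0.511 and 0.768 CPM in wildtype libraries and was not tested. Of the 163 partners, 23 were not tested.

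Among transcripts with the related suffixes ot (overlapping) and as (antisense), taken by the same rule, the windows of 1 pair passed in opposite directions; the difference between the changes was not tested in any of these pairs. Sox1ot was lower (6.68 ± 0.636 CPM in knockout, 13.8 ± 1.74 CPM in wildtype libraries, SD, n = 3 each; log2 fold change -1.05, adjusted p = 3.87e-11), whereas Sox1, a neural progenitor factor, was higher (9.7 ± 0.937 CPM in knockout, 5.11 ± 0.572 CPM in wildtype libraries; 0.93, adjusted p = 6.64e-07). Kcnq1ot1, the paternally expressed RNA that silences an imprinted domain, did not pass (86.4 ± 9.92 CPM in knockout and 83.3 ± 6.1 CPM in wildtype libraries, adjusted p = 0.789), and the potassium channel gene Kcnq1 was lower (log2 fold change -1.12, adjusted p = 8.67e-21). Gnasas1, of the imprinted Gnas domain, was lower (7.23 ± 0.467 CPM in knockout and 16.5 ± 1.89 CPM in wildtype libraries; log2 fold change -1.19, adjusted p = 2.27e-15) and Gnas did not pass (0.02, adjusted p = 0.963). Dlx1as was lower (-0.65, adjusted p = 0.000158) with Dlx1 at -0.90 (adjusted p = 0.105), and Sox2ot, Polr1has and Fbxw7as1 did not pass. Leprot, a protein-coding gene in its own right (log2 fold change 0.22, adjusted p = 0.226), and its partner Lepr (-0.63, adjusted p = 0.135) did not pass. Hras, also protein-coding, matches the suffix by its letters alone.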

How the data were processed

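Chromatin accessibility was measured by ATAC-seq in 3 Kat7-knockout and 3 wildtype libraries. The deposited values are whole-number read counts per gene window, which the submitters' processing notes tie to featureCounts and build mm10. How reads were aligned, whether duplicates were removed and whether reads were shifted for the transposase is not stated in the labels used here. Reads are not independent molecules, so the floor of 3 counts covers counting error only. Symbols came from the tables of single libraries and were joined by gene identifier to the series table, whose counts were equal in all 27095 windows.

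The main test was that of edgeR 4.0.16 (R 4.3.3): filterByExpr at its defaults (24817 windows left), TMM factors of 0.884 to 1.06, robust quasi-likelihood fit, Benjamini-Hochberg adjustment over all tested windows, threshold 0.05. The biological coefficient of variation was 10.9%. The SE of a window's change was the absolute log2 fold change divided by the square root of the quasi-likelihood F statistic. Adjusted p-values of differences between windows come from limma 3.58.1 (trend and robust, prior count 2) on within-library differences of log2 CPM over 23532 pairs, made of all consecutive tested windows and the opposite-strand pairs. Both steps were tested on simulated data. Alternatives were RLE factors, library totals, loess normalisation, no filter beyond a count above 0, a mean count of at least 50, a replicate block, DESeq2 1.42.0, limma-voom with sample weights, prior counts of 0.5 and 5, only windows sharing no base, and leaving out each library. Quartiles were taken over the mean level of all tested windows.

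The members, the lists and the tests were chosen with earlier results of these data known. Windows named in full were the 8 lowest and 8 highest members among those called, the 8 pairs with the largest called difference, the 5 members with the highest level, Dlx4os, a list of antisense transcripts of developmental regulators, pairs called in opposite directions and members without a count; others are marked as named after their values were seen.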

Additional observations from a re-analysis of the deposited data

How the results depend on the processing

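The main counts were 36 lower and 9 higher opposite-strand windows, 33 lower and 5 higher partners, 5 pairs both lower, none both higher and 47 unequal. With library totals only, 14 partners were higher and 2 pairs both higher. With loess normalisation, 20 opposite-strand windows and 22 partners were higher, 13 pairs both lower, 6 both higher and 13 transcription factor partners lower (main 8). With a mean count of at least 50, 14 opposite-strand windows and 19 partners were higher, 3 pairs both lower, 2 both higher and 30 unequal. With limma-voom, 22 opposite-strand windows were higher, 51 partners lower and 15 higher, 15 pairs both lower, 1 both higher and 13 transcription factor partners lower. Among windows that share no base, 21 opposite-strand windows were lower, 1 partner higher and 3 pairs both lower. Higher calls were 20% of opposite-strand calls (35.7% with loess, 30.6% with limma-voom) and 13.2% of partner calls (29.2% with library totals, 32.8% with loess, 37.3% with a mean count of at least 50); the causes were not tested.

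Leaving out 1 library at a time gave 30 to 40 lower and 4 to 13 higher opposite-strand windows, 27 to 42 lower and 2 to 7 higher partners, 3 to 6 pairs both lower, none both higher and 31 to 54 unequal. Same-numbered libraries deviated together with correlations of 0.374, 0.0284 and 0.389, and knockout library 2 correlated best with wildtype library 3, so the numbers were not taken as pairs; with the replicate block, 42 opposite-strand windows were lower and 13 higher, 41 partners lower and 8 higher, 10 pairs both lower and 51 unequal.

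Of 1093 recomputed values of 80 single windows, 929 kept their direction and side of the threshold, 68 lost and 64 gained a call, and 32 turned their sign, of which Zfhx2os alone was a called window (0.05 with loess). The others were Otx2os1 (0.09), Foxl2os (-0.16), Slfn5 (0.33), Pramel13 (0.43), Macrod2 (-0.10), Zfp652 (0.33) and Hoxd3 (0.20) with loess, Slfn5 (0.03) and Pramel13 (0.04) with RLE and with DESeq2, Slfn5 (0.01) and Pramel13 (0.02) with a mean count of at least 50, Macrod2 (-0.02) with library totals and without filter, and Macrod2 (-0.07), Igf2 (0.17) and Hoxa11 (0.07) with limma-voom. Leaving out a library turned a sign, with ranges of -0.03 to 0.99 for Trpc5os, -0.17 to 0.38 for Foxl2os, -0.32 to 0.17 for Igf2, -0.07 to 0.03 for Slfn5, -0.09 to 0.04 for Pramel13, -0.11 to 0.10 for Macrod2 and -0.05 to 0.17 for Zfhx2. Windows with few unshared bases limit what can be detected at this depth.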
